A study of Homo sapiens with 18 samples.

Results

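Homologous recombination, the Fanconi pathway and the replication checkpoint were followed here in lung cancer cells exposed to pioglitazone. The 35 genes followed include a mismatch repair subunit and a uracil glycosylase. The members were all probes annotated to the 35 symbols. A named probe was found for 31 of the 35 genes, 50 probes in all; BRCA2, FANCD2, RBBP8 and FANCA were not analysed here. Of the 31 genes, 29 had a probe above background on enough arrays to be tested, out of 11680 genes tested in the series. BRIP1, the helicase that binds the BRCA1 protein, was above background on 0 arrays, and FANCF, an adaptor of the Fanconi core complex, on 1 array, so neither was tested. The cells were of NCI-H2347, an established line of human lung cancer, kept in RPMI medium with 5% fetal bovine serum. All cultures received fresh medium 24 h after plating, with either 50 µM pioglitazone, a thiazolidinedione ligand of the nuclear receptor PPARγ, or its DMSO vehicle, and RNA was taken 12, 24 or 48 h later. Each of the 6 groups had 3 single-colour Illumina HumanHT-12 v4 bead arrays, 18 in all. Because no label says that the replicates were separate cultures, the p-values cover only the spread among these arrays, and that spread may be technical.

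Homologous recombination repairs broken chromosomes and stalled replication forks by copying the sister chromatid, and it acts mainly in cells that are replicating or have replicated their DNA. BRCA1 and its partners prepare resected DNA for strand invasion, the Fanconi proteins recognise crosslinked DNA and hand it to recombination, and ATR, ATM and the CHEK1 and CHEK2 kinases hold the cell cycle while repair proceeds. Many genes of these pathways are transcribed most strongly around S phase, in part through E2F factors. Tumour cells, lung cancer cells among them, lean on these pathways to tolerate replication stress.

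Promoter sequence was available for 27 of the 29 tested members, from the RefSeq table of assembly GRCh38.p14, as the 250 bases before each gene's start and the 50 from it. Shown, among members with a window, are those with the lowest log2 fold changes at 24 h (EXO1 and RAD54L) and at 48 h (RAD51AP1 and again EXO1), and the pair closest to 0 at 48 h (PALB2 and ATM). FANCI, lower than EXO1 at 48 h, and RAD54B have no entry in the table. The set is shown so that promoters of the members that fell most and of those that changed least at 48 h can be read beside each other. PALB2 was itself called lower at 24 h. XRCC2, the member called higher at 24 h, has an E2F-type word in its window and is not printed. Each runs 5′ to 3′ on the gene's own strand. Capitals mark letter matches on either strand to an E2F-type word (TTCCCGC, then TTCGCGC, also TTGCCGC or the word TTGGCGC), to the CCAAT box (CCAAT) or to the cell cycle homology region (TTTGAA or TTCGAA), and 0 of the marked matches overlapped.
EXO1, chr1:241847954-241848253, plus strand: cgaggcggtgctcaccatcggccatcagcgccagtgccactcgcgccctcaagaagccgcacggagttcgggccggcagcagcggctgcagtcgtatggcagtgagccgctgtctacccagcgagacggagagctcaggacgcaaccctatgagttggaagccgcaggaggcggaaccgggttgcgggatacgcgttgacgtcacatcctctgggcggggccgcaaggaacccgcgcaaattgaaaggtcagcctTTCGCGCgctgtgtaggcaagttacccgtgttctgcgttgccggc
RAD54L, chr1:46247438-46247737, plus strand: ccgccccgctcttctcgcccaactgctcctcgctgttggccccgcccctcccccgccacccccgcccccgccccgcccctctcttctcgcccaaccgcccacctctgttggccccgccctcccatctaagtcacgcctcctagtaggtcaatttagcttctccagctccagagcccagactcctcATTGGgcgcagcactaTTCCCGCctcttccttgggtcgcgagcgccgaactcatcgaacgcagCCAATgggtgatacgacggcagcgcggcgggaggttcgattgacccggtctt
RAD51AP1, chr12:4538640-4538939, plus strand: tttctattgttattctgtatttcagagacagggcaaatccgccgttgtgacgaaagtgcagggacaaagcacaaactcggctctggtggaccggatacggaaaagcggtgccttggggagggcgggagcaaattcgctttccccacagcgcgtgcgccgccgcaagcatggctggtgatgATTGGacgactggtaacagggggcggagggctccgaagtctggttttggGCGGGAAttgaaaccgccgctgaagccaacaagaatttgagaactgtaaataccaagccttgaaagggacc
PALB2, chr16:23641261-23641560, minus strand: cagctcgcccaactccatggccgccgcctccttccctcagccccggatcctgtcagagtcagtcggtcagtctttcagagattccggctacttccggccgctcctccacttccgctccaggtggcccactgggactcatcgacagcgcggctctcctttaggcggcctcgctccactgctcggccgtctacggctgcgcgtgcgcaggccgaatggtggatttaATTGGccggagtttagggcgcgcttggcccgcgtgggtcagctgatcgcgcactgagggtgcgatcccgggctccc
ATM, chr11:108222817-108223116, plus strand: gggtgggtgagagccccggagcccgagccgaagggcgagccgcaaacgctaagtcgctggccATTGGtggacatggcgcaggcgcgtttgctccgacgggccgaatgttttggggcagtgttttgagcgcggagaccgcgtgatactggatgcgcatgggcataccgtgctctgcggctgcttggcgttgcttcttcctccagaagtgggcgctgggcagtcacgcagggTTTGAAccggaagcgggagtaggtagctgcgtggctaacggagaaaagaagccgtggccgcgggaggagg
The EXO1 window held 1 E2F-type word, with its first base at position 5 from the start site. RAD54L held 1 at position -49 between a pair of CCAAT letters at -65 and -2, and RAD51AP1 held 1 at -21 with CCAAT letters at -70. PALB2 and ATM held CCAAT letters and no E2F-type word, and ATM held the only cell cycle homology letters among the 27 members. A letter match is a description of these windows and not evidence of binding.

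Of the markers checked, 7 of 8 epithelial markers were above background on all 18 arrays, as were NKX2-1, NAPSA, FOXA2 and SFTA3, while SFTPB and SFTPC were above background on none. Of 5 leukocyte markers with a probe, PTPRC and CD3E were above background on 0 arrays, LYZ on 2, CD14 on 17 and CD68 on all 18. Of 5 endothelial markers 4 were above background on 0 arrays and VWF on 10. Of 6 fibroblast markers COL1A1 and COL1A2 were above background on all 18, PDGFRB and LUM on 0, COL3A1 on 1 and DCN on 2. The summed linear level of the fibroblast list, vehicle against pioglitazone, was 552 to 598 against 316 to 403 at 12 h, 599 to 653 against 456 to 553 at 24 h and 494 to 646 against 708 to 733 at 48 h. That of the epithelial list was higher in pioglitazone at each time, at 34000 to 36100 against 36400 to 38400, 43500 to 47900 against 49200 to 51400 and 40100 to 40800 against 43400 to 50600. The fibroblast sum was thus lower with treatment at 12 and 24 h and higher at 48 h, and the part of either shift in the results below was not tested. The leukocyte sum was higher in pioglitazone at 12 h (1360 to 1390 against 1470 to 1600) and its ranges met or overlapped later. The endothelial sum overlapped at 12 h and was higher in pioglitazone at 24 h (48.1 to 59.1 against 59.2 to 79.9) and 48 h (46.5 to 51.8 against 55.3 to 85.5), and the lung lineage sum overlapped at each time. The part of these shifts in the members' results was not tested either. Each array detected 17040 to 18880 of 47323 probes at a detection p-value under 0.01. The background signal, taken as the median intensity of undetected probes, lay in a higher class, 137 to 152, on the 24 h arrays of both treatments and on the third pioglitazone array of the 48 h group. The other arrays formed a lower class of 101 to 112. Treatment was therefore compared within 1 background class at 12 h and at 24 h. Differences of pioglitazone from vehicle at 48 h that move by more than 1.5 times without replicate 3 are given with and without it. The part of this background in any difference between 24 h and the other times was not tested.

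Levels below are log2 values of background-corrected, quantile-normalised intensities for the brightest probe of each gene, and they compare arrays, not genes. A gene is called lower or higher at a Benjamini-Hochberg adjusted p under 0.05 over all 11680 genes in limma's moderated fit, with n = 3 arrays per group and the standard error (SE) given for each log2 fold change. In RNA from whole cultures, fewer cells of a type and less RNA per cell cannot be told apart.

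Pioglitazone was followed by lower levels of most members, and by more of them at the later times. At 12 h 8 of the 29 tested members were lower and 0 higher, against 4.48% lower and 4.32% higher among all genes tested. At 24 h 21 were lower and 1, XRCC2, was higher, against 12.8% lower and 10.5% higher among all genes. At 48 h 23 were lower and 0 higher, against 15.4% and 14.3% of all genes. The median log2 fold change over the 29 members was -0.29 at 12 h, -0.79 at 24 h and -0.96 at 48 h, where the medians over all genes were 0, -0.02 and 0.01. The members lower at all 3 times numbered 8 (BRCA1, BARD1, EXO1, EME1, FANCL, MSH6, UNG and TIPIN), against 2.11% of all genes, and 20 were lower at both 24 and 48 h, against 7.08% of all genes. Without pioglitazone replicate 3 at 48 h, the array in the higher background class, 22 members were lower at 48 h and their median was -0.94. The groups of 3 arrays did not overlap, with pioglitazone lower, for 19 members at 12 h, 24 at 24 h and 22 at 48 h, against 17.4%, 25.1% and 19.1% of all genes. Under median scaling between arrays in place of quantile normalisation, 0 members were called at 12 h, 16 at 24 h and 10 at 48 h. The members' medians under that scaling were -0.17, -1.01 and -0.64, and the median of all genes moved to 0.11, -0.20 and 0.26. The shares of all genes called under that scaling were not computed.

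**Figure D1:**
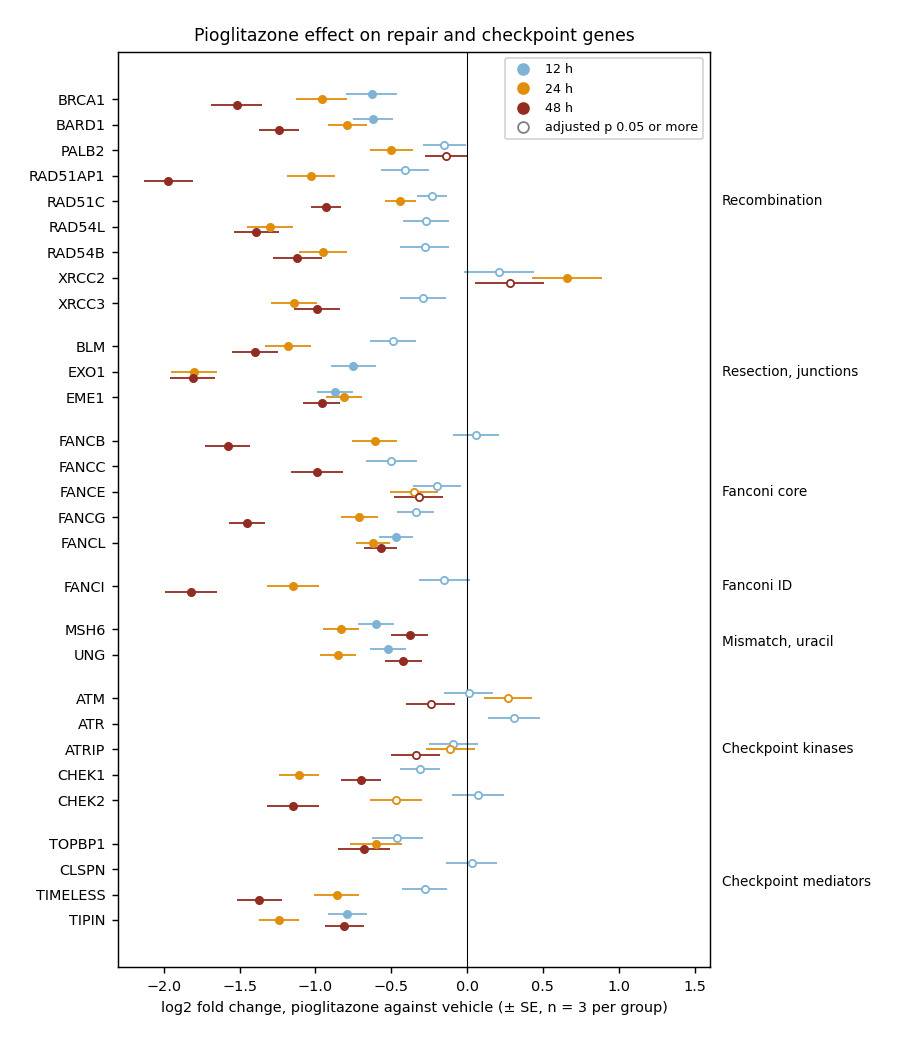
Log2 fold change of pioglitazone against vehicle (x axis) for the 29 tested members, grouped by role (y axis), at 12, 24 and 48 h; points are limma estimates, bars are ± 1 SE, n = 3 arrays per group, open points were not called and points with both groups below background (FANCC at 24 h, ATR and CLSPN at 24 and 48 h) are left out. Most members lie left of 0 at 24 and 48 h, with RAD51AP1 at -1.97 and FANCI at -1.82 at 48 h, while XRCC2 lies right of 0 and ATM near it.

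The recombination members, with those that resect ends and resolve junctions, made up 12 of the tested genes. Of these, 4 were lower at 12 h, 11 at 24 h (XRCC2 being higher) and 10 at 48 h, against 4.48%, 12.8% and 15.4% of all genes. Their median log2 fold change went from -0.35 to -0.95 and -1.18. BRCA1, the ubiquitin ligase that directs breaks towards recombination, read 7.51, 7.39 and 7.48 on the vehicle arrays at 12 h and 6.84, 6.61 and 7.03 on the pioglitazone arrays. At 24 h it read 6.65, 6.26 and 6.25 against 5.51, 5.22 and 5.56, and at 48 h 7.26, 7.21 and 7.12 against 5.99, 5.79 and 5.26. Every treated array lay below every vehicle array at each time, and 1 treated array at 24 h was not above background. The log2 fold changes were -0.63 (SE 0.17, adjusted p = 0.0241), -0.96 (SE 0.17, adjusted p = 0.000553) and -1.52 (SE 0.17, adjusted p = 2.49e-06) by limma. The call at 12 h was lost without any 1 of 5 arrays, namely vehicle replicates 1 to 3 (adjusted p = 0.08, 0.0539 and 0.0772) and pioglitazone replicates 1 and 2 (0.0694 and 0.115). A second BRCA1 probe, above background on 12 arrays, gave -0.41, -1.33 and -1.80.

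BARD1, the obligate partner of BRCA1, read 9.76 to 9.79 in vehicle and 9.12 to 9.18 in pioglitazone at 12 h, and 8.85 to 9.31 against 7.64 to 8.05 at 48 h. It fell by 0.62 (SE 0.13, adjusted p = 0.00489), 0.79 (SE 0.13, adjusted p = 0.000292) and 1.24 (SE 0.13, adjusted p = 1.11e-06) on the log2 scale at the successive times. BARD1 also fell with time in vehicle alone, by 0.73 between 12 and 48 h (SE 0.13, adjusted p = 0.000516). PALB2, which bridges BRCA1 to BRCA2, was called at 1 time: it was lower at 24 h only (log2 fold change -0.50, SE 0.14, adjusted p = 0.0128), and its groups overlapped at 12 and 48 h, with values of -0.15 and -0.14. Without vehicle replicate 1 the PALB2 difference at 24 h was -0.47 with an adjusted p of 0.0511, and the 3 effects on PALB2 did not differ between times past the threshold.

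RAD51AP1, which stimulates strand invasion, had the lowest log2 fold change of the members at 48 h. It read 10.15, 9.95 and 10.09 in vehicle and 9.75, 9.68 and 9.52 in pioglitazone at 12 h, 9.32, 9.09 and 9.38 against 8.16, 8.28 and 8.25 at 24 h, and 9.47, 9.39 and 9.40 against 7.87, 6.95 and 7.51 at 48 h. The groups stood apart at every time, and the gap was widest at 48 h, where the treated arrays averaged 25.5% of vehicle. The log2 fold change was -0.41 at 12 h (SE 0.16, adjusted p = 0.135, not called), -1.03 at 24 h (SE 0.16, adjusted p = 0.000247) and -1.97 at 48 h (SE 0.16, adjusted p = 9.23e-08).

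The RAD54 translocases, which remodel chromatin and DNA during strand invasion, were lower at the later times. RAD54L read 7.62, 7.61 and 7.56 against 7.25, 7.37 and 7.37 at 12 h, 7.21, 6.60 and 6.90 against 5.68, 5.61 and 5.51 at 24 h, and 6.95, 6.78 and 7.23 against 5.84, 5.38 and 5.55 at 48 h, vehicle first. Its groups did not overlap at any time, and 1 treated array at 48 h was not above background. The log2 fold change was -0.27 at 12 h (adjusted p = 0.305), -1.30 at 24 h (SE 0.15, adjusted p = 1.11e-05) and -1.39 at 48 h (SE 0.15, adjusted p = 1.89e-06). RAD54B gave -0.28, -0.95 and -1.12 (SE 0.16 each) and was called at 24 and 48 h.

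Of RAD51C, XRCC2 and XRCC3, which act together in recombination, RAD51C and XRCC3 were lower at 24 and 48 h and XRCC2 was not. XRCC3 read 7.90 to 8.15 in vehicle and 6.75 to 7.02 in pioglitazone at 24 h, a log2 fold change of -1.14 (SE 0.15, adjusted p = 5.43e-05), and -0.99 at 48 h (SE 0.15, adjusted p = 0.000116). The brightest RAD51C probe fell by 0.44 at 24 h and by 0.93 at 48 h (SE 0.10 each, adjusted p = 0.00342 and 1.54e-06). RAD51C has a pair of further kept probes, annotated to another transcript. They gave 0.10 and -0.05 at 12 h, -0.14 and -0.51 at 24 h and -0.28 and -0.57 at 48 h. The first of them was not called at any time (limma adjusted p = 0.748, 0.521 and 0.132 over all kept probes). The second was called at 24 and 48 h (0.00913 and 0.00317). The RAD51C probes thus differed in the size of the decline and in whether it was called. XRCC2 read 8.78, 9.15 and 8.63 in vehicle and 9.75, 9.33 and 9.46 in pioglitazone at 24 h. The treated arrays were all higher there, while at 12 and 48 h the groups overlapped. Its log2 fold change of 0.66 at 24 h (SE 0.23) had an adjusted p of 0.0473 and was not called without vehicle replicate 1 (0.126), vehicle replicate 3 (0.167) or pioglitazone replicates 1 (0.149), 2 (0.0601) or 3 (0.0895).

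Of the genes that process ends and junctions, EXO1, an exonuclease shared by end resection and mismatch repair, had the lowest log2 fold changes at 24 and 48 h. EXO1 read 8.86, 8.75 and 8.66 in vehicle and 7.91, 8.08 and 8.02 in pioglitazone at 12 h. At 24 h the vehicle arrays read 8.0, 7.53 and 7.60 and the treated arrays 5.89, 5.95 and 5.89. At 48 h they read 8.60, 8.53 and 8.36 against 6.98, 6.73 and 6.35. The treated arrays were the lower ones at all 3 times, with no overlap, and both groups read lower at 24 h than at the other times. The log2 fold changes were -0.75 (SE 0.15, adjusted p = 0.0032), -1.80 (SE 0.15, adjusted p = 3.63e-07) and -1.81 (SE 0.15, adjusted p = 6.56e-08). BLM, the helicase that dissolves paired junctions, gave -0.49 at 12 h (adjusted p = 0.0561), -1.18 at 24 h and -1.40 at 48 h (SE 0.15, adjusted p = 4.4e-05 and 2.65e-06). EME1, a subunit of the MUS81 junction nuclease, was lower at each time, with -0.87, -0.81 and -0.96 (SE 0.12, adjusted p = 0.000197, 0.000113 and 9.81e-06). Above background were 2 of 3 treated EME1 arrays at 24 and at 48 h, and 2 of 3 treated BLM arrays at 48 h. The sizes of these falls rest on treated signals near background.

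**Figure D2:**
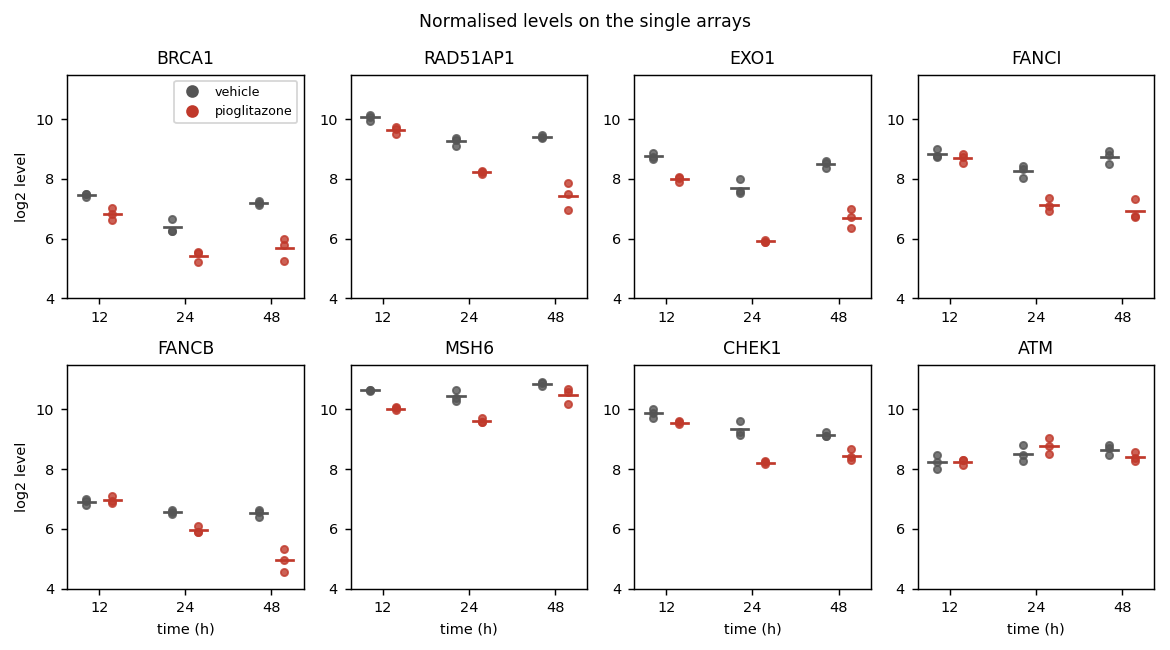
Log2 level (y axis) of 8 members on each array by time in hours (x axis), grey for vehicle and red for pioglitazone; points are single arrays and short lines are means of 3. RAD51AP1 falls to between 6.95 and 7.87 on the treated arrays at 48 h, EXO1 is at 5.89 to 5.95 in treated cells at 24 h, MSH6 stays above 9.5 on every array and the ATM groups overlap at each time.

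More Fanconi members were lower at each later time. Of 6 tested, 1 was lower at 12 h, 4 at 24 h and 5 at 48 h, against 4.48%, 12.8% and 15.4% of all genes. Their median log2 fold changes were -0.27, -0.61 and -1.22. FANCI, a subunit of the clamp that the pathway ubiquitinates at crosslinks, read 8.78, 8.99 and 8.75 in vehicle and 8.84, 8.72 and 8.53 in pioglitazone at 12 h. At 24 h it read 8.45, 8.03 and 8.35 against 7.35, 7.11 and 6.92, and at 48 h 8.81, 8.49 and 8.95 against 7.32, 6.71 and 6.75. The groups overlapped at 12 h and stood apart by more than their spread at 24 and 48 h. The log2 fold change was -0.15 at 12 h (adjusted p = 0.679), -1.15 at 24 h (SE 0.17, adjusted p = 0.000154) and -1.82 at 48 h (SE 0.17, adjusted p = 4.75e-07).

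FANCB, an X-linked member of the core complex, read 6.99, 6.95 and 6.79 against 7.10, 6.86 and 6.93 at 12 h, 6.64, 6.57 and 6.51 against 6.10, 5.91 and 5.88 at 24 h, and 6.63, 6.56 and 6.40 against 4.97, 4.54 and 5.33 at 48 h, vehicle first. Treated and vehicle arrays were mixed at 12 h and separate later, and 1 of the 3 treated arrays at 48 h was above background. The log2 fold change was 0.06, -0.61 and -1.58 (SE 0.15 each, adjusted p = 0.875, 0.00738 and 4.7e-07). A second FANCB probe, above background on 11 arrays, gave -0.02, -0.60 and -0.60 at 12, 24 and 48 h. Its fall at 48 h was smaller than that of the first probe and no larger than its own at 24 h.

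FANCL, the ubiquitin ligase of the core complex, was lower at all times by much the same size, with -0.47, -0.62 and -0.57 (SE 0.11, adjusted p = 0.0154, 0.000955 and 0.00115). Its call at 12 h was lost without vehicle replicate 3 (adjusted p = 0.072) or pioglitazone replicate 1 (0.0905). FANCG, a scaffold of the core complex, went from 8.40 to 8.55 in vehicle to 6.75 to 7.38 in pioglitazone at 48 h, and its log2 fold changes were -0.34 (adjusted p = 0.105), -0.71 (SE 0.12, adjusted p = 0.000616) and -1.45 (SE 0.12, adjusted p = 1.5e-07). FANCC, another core subunit, was above background in all vehicle arrays and in no treated array at 48 h, and was at least 1.32-fold lower there (adjusted p = 0.000235). At 24 h FANCC was not above background in either group, and at 12 h its difference of -0.50 had an adjusted p of 0.0732, which became 0.0359 without pioglitazone replicate 3. FANCE, which links the core complex to its substrate, was not called at any time (-0.20, -0.35 and -0.32). Its value at 48 h was -0.47 (adjusted p = 0.0348) without pioglitazone replicate 1 and -0.09 without replicate 3.

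Both the mismatch repair member and the uracil glycosylase were lower at each time, and their smallest differences were at 48 h. MSH6, which recognises mismatches, read 10.64, 10.65 and 10.62 against 10.08, 10.04 and 9.97 at 12 h, 10.65, 10.30 and 10.38 against 9.70, 9.58 and 9.57 at 24 h, and 10.79, 10.92 and 10.88 against 10.58, 10.19 and 10.68 at 48 h, vehicle first. The groups did not overlap, but at 48 h the nearest vehicle and treated arrays were close. The log2 fold changes were -0.60 (SE 0.12, adjusted p = 0.00381), -0.83 (adjusted p = 0.000111) and -0.38 (adjusted p = 0.0239). UNG, which removes uracil from DNA, gave -0.52, -0.85 and -0.42 (SE 0.12, adjusted p = 0.00893, 6.83e-05 and 0.0124). The MSH6 call at 48 h was lost without vehicle replicate 2 or 3 or pioglitazone replicate 2 (adjusted p = 0.0759, 0.0626 and 0.117, the last with a value of -0.23), and the UNG call without vehicle replicate 1 or pioglitazone replicate 2 (0.0533 and 0.0597). Neither gene's effect at 48 h differed past the threshold from that at 24 h (differences of 0.45 for MSH6 and 0.43 for UNG, adjusted p = 0.159 and 0.162). The MSH6 difference was 0.60 (adjusted p = 0.0274) without pioglitazone replicate 2 at 48 h, and both differences were called with array weights.

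The checkpoint members were divided between genes that fell and genes that were not called at any time. Of 9 tested, 1 was lower at 12 h, 4 at 24 h and 6 at 48 h, against 4.48%, 12.8% and 15.4% of all genes. The medians over the 9 were -0.09, -0.47 and -0.68. CHEK1, the effector kinase of the replication checkpoint, read 10.02, 9.71 and 9.88 against 9.57, 9.60 and 9.51 at 12 h, 9.61, 9.15 and 9.23 against 8.26, 8.16 and 8.25 at 24 h, and 9.12, 9.10 and 9.25 against 8.66, 8.31 and 8.40 at 48 h, vehicle first. Its groups did not overlap and were farthest apart at 24 h, and in vehicle CHEK1 fell by 0.71 between 12 and 48 h (SE 0.13, adjusted p = 0.000593). The log2 fold changes were -0.31 (adjusted p = 0.143), -1.11 (SE 0.13, adjusted p = 1.09e-05) and -0.70 (SE 0.13, adjusted p = 0.000471). CHEK2, the effector kinase that ATM activates at breaks, read 6.54, 6.51 and 6.71 against 5.46, 5.03 and 5.83 at 48 h, with 1 treated array not above background. It gave 0.07 at 12 h, -0.47 at 24 h (adjusted p = 0.0516, and 0.0496 without vehicle replicate 2) and -1.15 at 48 h (SE 0.17, adjusted p = 6.22e-05).

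The apical kinases gave smaller values. ATM, which responds to double-strand breaks, read 8.49, 8.23 and 7.99 against 8.13, 8.30 and 8.30 at 12 h, 8.47, 8.80 and 8.27 against 9.06, 8.52 and 8.78 at 24 h, and 8.81, 8.46 and 8.70 against 8.29, 8.58 and 8.37 at 48 h, vehicle first. Its groups overlapped at every time, and the 95% intervals of the log2 fold change ran from -0.34 to 0.35, from -0.07 to 0.62 and from -0.59 to 0.10. ATRIP, the partner that brings ATR to single-stranded DNA, gave -0.09, -0.11 and -0.34 with overlapping groups, and at 48 h -0.53 (adjusted p = 0.0143) without pioglitazone replicate 1 and -0.13 without replicate 3. ATR itself was above background on 4 arrays, all at 12 h. It counts among the 23 members lower at 48 h (adjusted p = 0.0488) on signals that were above background in neither group, so no fold is given, and without it 22 were lower. The ATR call was lost without vehicle replicate 1 or 3 or pioglitazone replicate 1 or 3 at 48 h (adjusted p = 0.136, 0.15, 0.201 and 0.0629).

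Of the 4 checkpoint mediators, 1 was lower at 12 h and 3 were lower at 24 and at 48 h, against 4.48%, 12.8% and 15.4% of all genes. TIMELESS, which with TIPIN forms the fork protection complex, read 9.83, 9.79 and 9.71 against 9.52, 9.47 and 9.50 at 12 h, 9.18, 8.84 and 8.86 against 8.23, 7.90 and 8.16 at 24 h, and 9.59, 9.32 and 9.53 against 8.48, 8.02 and 7.83 at 48 h, vehicle first. No treated TIMELESS array reached its vehicle group at any time. The log2 fold changes were -0.28 (adjusted p = 0.276), -0.86 (SE 0.15, adjusted p = 0.000447) and -1.37 (SE 0.15, adjusted p = 1.94e-06). TIPIN was lower from 12 h, with -0.79, -1.24 and -0.81 (SE 0.13, adjusted p = 0.00083, 4.32e-06 and 0.00014). TOPBP1, the activator of ATR, gave -0.46 at 12 h (adjusted p = 0.111), -0.60 at 24 h (SE 0.17, adjusted p = 0.0178) and -0.68 at 48 h (SE 0.17, adjusted p = 0.00623). The TOPBP1 difference was -0.48 (adjusted p = 0.0925) at 24 h without pioglitazone replicate 2 and -0.43 (adjusted p = 0.0222) at 48 h without pioglitazone replicate 3. CLSPN, the adaptor that presents CHEK1 to ATR, was above background on 3 arrays, all at 12 h, and was not called at any time.

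Several members had a further kept probe, which is given here by its own log2 fold changes at 12, 24 and 48 h. For EXO1 it was above background on 13 arrays and gave -0.82, -1.24 and -1.26, for CHEK2 on 16 arrays with -0.21, -0.69 and -1.12, and for ATM and ATRIP on all 18 with 0.01, 0.17 and -0.22 and with -0.08, -0.24 and -0.27. These had the sign of the brightest probe except CHEK2 at 12 h, where neither probe was called. At 24 h the further CHEK2 probe was called and the brightest was not (adjusted p = 0.00788 and 0.0644 over all kept probes). UNG had a pair of dimmer probes, above background on 10 and 6 arrays, which gave -0.76, -0.28 and -0.08 and -0.46, 0.08 and -0.61, so its probes differed in size at the later times: at 24 h only the brightest was called, and at 48 h the brightest and the dimmest were (adjusted p = 0.0183 and 0.0284 over all kept probes).

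**Figure D3:**
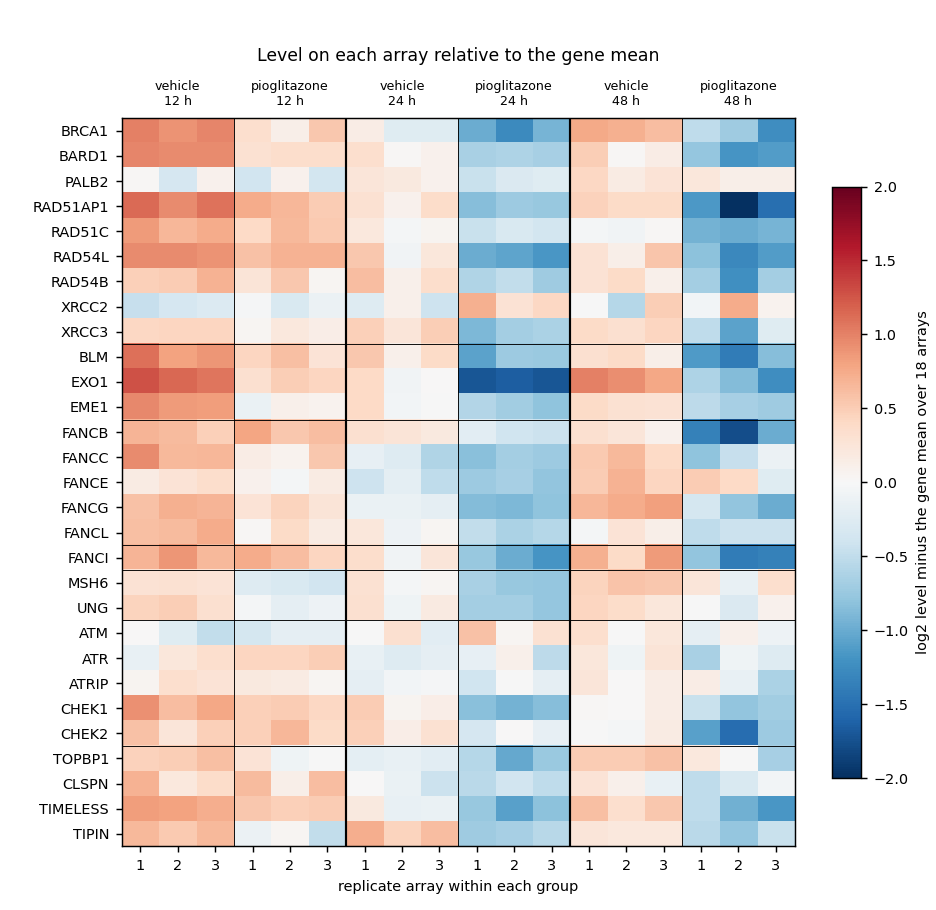
Level of each tested member (rows, by role) on each of the 18 arrays (columns, by group and replicate) as log2 level minus the gene's mean over all arrays, on a scale from -2 (blue) to 2 (red). The pioglitazone columns at 24 and 48 h are blue for most rows, while XRCC2 and ATM are not, and MSH6 and UNG are bluest in the treated arrays at 24 h.

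The effects at successive times were compared directly as differences of log2 fold changes. Between 12 and 48 h the effect became more negative for 13 of 29 members and more positive for 0, against 5.22% and 3.88% of all genes. The largest such differences were in FANCI (-1.67, SE 0.24, adjusted p = 0.000243), FANCB (-1.64, SE 0.21, adjusted p = 6.94e-05) and RAD51AP1 (-1.56, SE 0.23, adjusted p = 0.000278). The others were CHEK2, RAD54L, FANCG, TIMELESS, EXO1, BLM, BRCA1, RAD54B, RAD51C and BARD1. Of the 13, 10 stayed past the threshold without any 1 of the 12 arrays, and the exceptions were BRCA1, BARD1 and RAD54B, with adjusted p-values of up to 0.0628 (without pioglitazone replicate 3 at 12 h), 0.0941 (without vehicle replicate 1 at 48 h) and 0.0777 (without pioglitazone replicate 2 at 12 h). Between 12 and 24 h 3 members had a more negative effect, RAD54L (-1.04), EXO1 (-1.05) and CHEK1 (-0.79), against 0.342% of all genes, and 0 had a more positive one, against 0.351%. That count was 0 or 1 without any single array at 12 h, vehicle replicate 1 or 3 at 24 h or pioglitazone replicate 2 or 3 at 24 h. Between 24 and 48 h the effect became more negative for RAD51AP1 (-0.94, SE 0.23, adjusted p = 0.0341), FANCB (-0.97, SE 0.21, adjusted p = 0.0158) and FANCG (-0.74, SE 0.18, adjusted p = 0.0289), against 2.16% of all genes, and more positive for 0, against 1.25%. There the count was 1 without vehicle replicate 2 or 3 at 48 h, any vehicle array at 24 h or pioglitazone replicate 2 or 3 at 24 h, and 5 without pioglitazone replicate 1 at 48 h. The FANCB difference was not called without background correction or with the mean of the gene's kept probes. Under median scaling 0 members were called in all 3 differences, and the median over members of the difference between 24 and 48 h changed from -0.22 to 0.26, with the median of all genes at 0.46.

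The members also changed with time in culture, which sets the vehicle level that treatment is read against. Between 12 and 48 h in vehicle 9 members were lower and 0 higher, against 13.6% and 12% of all genes. They were BARD1, RAD51AP1, RAD51C, RAD54L, BLM, EME1, FANCL, CHEK1 and TIPIN, by 0.38 (TIPIN) to 0.78 (RAD51C) on the log2 scale. The TIPIN difference of -0.38 (adjusted p = 0.0358) was lost without any 1 of the 6 arrays (adjusted p = 0.053 to 0.0991). In pioglitazone over the same interval 21 members were lower, against 19.2% of all genes, and 2 were higher, PALB2 (0.37, adjusted p = 0.0386) and MSH6 (0.45, adjusted p = 0.00653), against 18.7%. PALB2 was not called there without pioglitazone replicate 1 or 3 at 12 h (adjusted p = 0.157 and 0.141) or replicate 1 or 2 at 48 h (0.105 and 0.0548). FANCE gave 0.15 in pioglitazone (adjusted p = 0.467), and 0.39 (adjusted p = 0.0117) without pioglitazone replicate 3 at 48 h. FANCB fell by 2.02 and RAD51AP1 by 2.21 in treated cells, and by 0.38 (adjusted p = 0.0728) and 0.64 (adjusted p = 0.00789) in vehicle. FANCG and FANCI differed little with time in vehicle (0.08 and -0.09, not called) and gave -1.03 and -1.77 in pioglitazone (adjusted p = 5.18e-06 and 4.49e-07).

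Other genes of the same and neighbouring pathways were counted for comparison, to be read against the shares of all genes called lower (4.48%, 12.8% and 15.4% at 12, 24 and 48 h) and higher (4.32%, 10.5% and 14.3%). Of 26 other tested recombination and Fanconi genes, 2 were lower at 12 h, 7 at 24 h with 4 higher, and 9 at 48 h, and their median at 48 h was -0.12. UBE2T, the conjugating enzyme that works with FANCL, was lower at each time (-0.68, -0.85 and -1.23, SE 0.14), and SLX4, a nuclease scaffold, at 48 h (-1.01, adjusted p = 1.3e-05). Among 16 other checkpoint genes 2, 6 and 5 were lower, including RPA2, a subunit of the single-strand binding complex (-0.48, -0.85 and -0.92), and RHNO1, a partner of the checkpoint clamp (-0.42, -0.76 and -0.71). Of 4 other mismatch repair genes 0 were called at 12 and 24 h and 1, PMS2, was lower at 48 h (-0.44, adjusted p = 0.0134).

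The lists of base excision repair, end joining and nucleotide excision repair had medians of -0.20, 0.01 and -0.15 at 48 h. Base excision repair had 8 of 18 lower and 1 higher at 48 h, led by the replication-linked glycosylase NEIL3 (-2.02, SE 0.22, adjusted p = 1.95e-06) and by APEX2 (-0.59), while NEIL1 was higher (0.56, adjusted p = 0.0132). End joining had 2 of 8 lower, POLQ, the polymerase of the microhomology branch (-1.36, adjusted p = 7.47e-07), and PAXX (-0.73). Nucleotide excision repair had 3 of 18 lower, including ERCC2 (-1.19) and DDB1 (-0.36), and 2 higher, the damage sensor XPC (0.81, SE 0.14, adjusted p = 0.000382) and its partner CETN2 (0.43), counts near the 15.4% and 14.3% of all genes. Replication licensing genes, the MCM helicase and its loaders, had 6, 12 and 11 of 17 lower at 12, 24 and 48 h with medians of -0.41, -0.89 and -0.69, among them MCM7 (-0.50, -1.22 and -1.10) and CDC45 (-0.60, -1.61 and -1.76). Spindle checkpoint and mitotic exit genes had 1, 7 and 14 of 18 lower with medians of -0.20, -0.31 and -1.33, among them UBE2C (-0.51, -0.85 and -2.65) and PTTG1 (-0.14, -0.08 and -1.85). The share of cells in S phase or mitosis was not measured, and the part of such a shift in the members' decline was not tested.

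**Figure D4:**
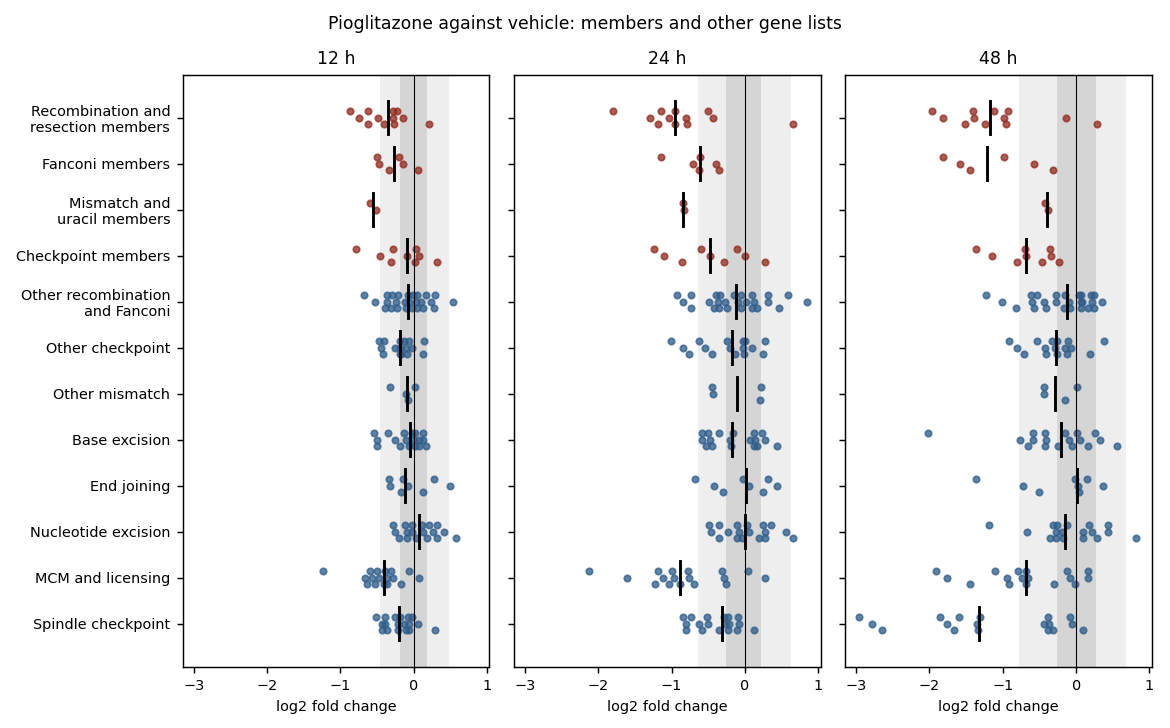
Log2 fold change of pioglitazone against vehicle (x axis) at 12, 24 and 48 h for the members by role (red) and for other repair, licensing and spindle lists (blue); points are genes, black lines list medians, and grey bands span the 5th to 95th and 25th to 75th percentiles of all 11680 genes. Recombination members and licensing genes have medians of -0.95 and -0.89 at 24 h, spindle genes have a median of -1.33 at 48 h, and the end joining and nucleotide excision lists stay centred near 0.

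E2F-type words were found in the promoter window of 19 of 27 members, 70.4%, where 20.2% of the 9405 tested genes with a window and 12.8% of all 27305 windows held one. CCAAT letters were in 14 of 27 (51.9%, against 36.7% of tested genes and 35.6% of all windows) and cell cycle homology letters in 1 (3.7%, against 11.8% and 16.8%). At 24 h 15 of the 19 members with an E2F-type word and 4 of the 8 without were lower, with medians of -0.83 and -0.46. At 48 h the counts were 16 of 19 and 5 of 8, with medians of -0.99 and -0.58. Among the 9405 tested genes with a window, 18.2% of those with the word and 11.6% of those without were lower at 24 h, and 20.1% and 14.4% at 48 h. At 12 h 8 of the 19 members with the word and 0 of the 8 without were lower. Among tested genes with a window, the shares with and without the word were 6.8% and 3.85%. Of the 8 members without it, CHEK1, FANCB and RAD51C were lower at 24 and 48 h. PALB2 was lower at 24 h only, and CHEK2 and ATR at 48 h only, ATR on signals above background in neither group. ATM and ATRIP were not called at any time. XRCC2, with the word, was the member that was higher. These counts describe members of a few pathways, chosen with earlier results of these data known. No test was made of the word's relation to the response.

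**Figure D5:**
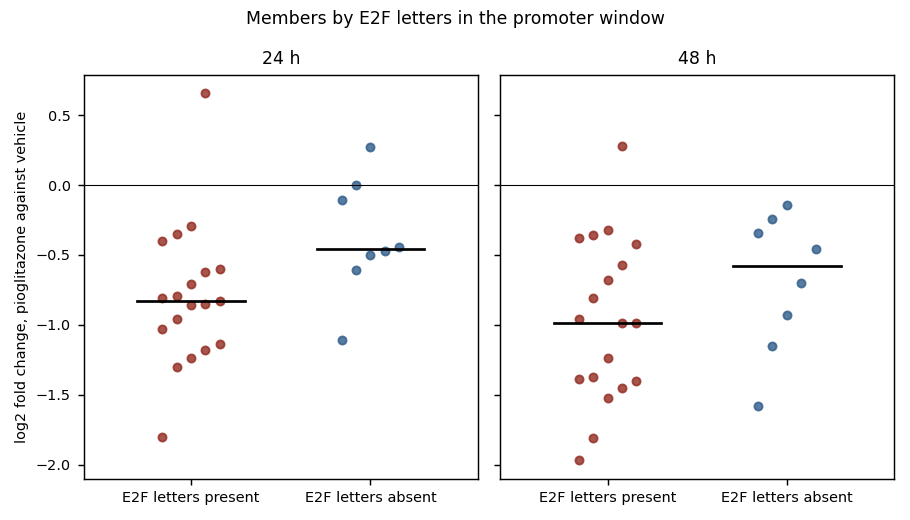
Log2 fold change of pioglitazone against vehicle (y axis) at 24 and 48 h for the 27 members with a promoter window, split by presence (19 genes) or absence (8 genes) of an E2F-type word (x axis); points are genes and lines are medians. Medians are -0.83 and -0.46 at 24 h and -0.99 and -0.58 at 48 h, and the ranges of the groups overlap.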

How the data were processed

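Total RNA from 18 samples of NCI-H2347 cells was hybridised to single-colour bead arrays. The authors deposited an unnormalised table with a signal intensity per probe and array, exported from GenomeStudio per the submitters' processing notes; the version is not given in the sources used here. The same table holds the authors' detection p-value of every probe against negative controls. A second deposited table of linear intensities, processed by the authors in a way not given in the sources used here, served as an alternative.

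The neqc function of limma 3.58.1 (R 4.3.3) corrected the background, with controls inferred from detection p-values and an offset of 16, quantile-normalised the arrays and took log2. Probes with a detection p under 0.01 on at least 3 of 18 arrays were kept (20032), genes were named through the platform's annotation, and the brightest kept probe stood for each of 11680 genes. Every comparison came from limma's empirical Bayes fit of 6 group means to the 18 arrays, with 12 residual degrees of freedom. Where a group was below background on all its arrays, a change is given as a bound, with each dim array set no lower than its dimmest probe above background. Precision is limited by the number of arrays, and the standard error of an effect had a median of 0.15 on the log2 scale. Tested on simulated data with 100 genes changed 2-fold, the fit recovered 87 at each of 12, 24 and 48 h, and 35, 44 and 54 of 100 changed 1.5-fold.

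All members are named with their probes. From each companion list up to 2 genes per direction with the lowest adjusted p at 48 h are named. The members and lists were chosen with earlier results of these data known. Alternatives covered background correction, offset, scaling, detection filter, the authors' processed table, array weights, the samples in the fit, the replicate number as a block, the probe rule and each array left out in turn. Sequences are RefSeq's, and the member on chromosome 8 is not printed. FANCI and RAD54B had no entry in the promoter table.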

Additional observations from a re-analysis of the deposited data

Results flagged for a closer look

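The effect of pioglitazone differed between times, by a test of the difference itself in limma, for 14 members in 19 comparisons. Among all genes tested, the effect became more negative for 5.22% between 12 and 48 h, 0.342% between 12 and 24 h and 2.16% between 24 and 48 h. Between 12 and 48 h the difference of log2 fold changes was -0.89 for BRCA1, -0.62 for BARD1, -1.56 for RAD51AP1, -0.70 for RAD51C, -1.13 for RAD54L, -0.84 for RAD54B, -0.91 for BLM, -1.06 for EXO1, -1.64 for FANCB, -1.11 for FANCG, -1.67 for FANCI, -1.22 for CHEK2 and -1.09 for TIMELESS. Between 12 and 24 h it was -1.04 for RAD54L, -1.05 for EXO1 and -0.79 for CHEK1. Between 24 and 48 h it was -0.94 for RAD51AP1, -0.97 for FANCB and -0.74 for FANCG. Of these, 0 of 3 between 12 and 24 h, 1 of 3 between 24 and 48 h (FANCB) and 10 of 13 between 12 and 48 h stayed past the threshold without any single array. Under median scaling 0 members were called in any of the 3 differences, so all of these calls were lost. Without background correction RAD54L and EXO1 lost their calls between 12 and 24 h and FANCB between 24 and 48 h. BRCA1, BARD1, RAD54B and BLM lost theirs between 12 and 48 h there. With the compared groups alone all 3 calls between 24 and 48 h were lost, and BARD1 and RAD54B between 12 and 48 h. The FANCB call between 24 and 48 h was also lost with the mean of the gene's kept probes, as were the EXO1 calls.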

How the results depend on the processing

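Every call of a member and the number of members called in each comparison were recomputed under 11 other settings and with each of the 18 arrays left out. Counts by role, by companion list and by promoter word were not recomputed. Nor were those of groups without overlap and of members lower at several times. The shares of all genes called were not computed under the other settings or with arrays left out. For pioglitazone against vehicle, 1379 of 1473 recomputed member values kept their side of the threshold, 63 lost it and 31 gained it. For the differences between times it was 1856 of 1995, with 102 lost and 37 gained, and for time within a treatment 933 of 982, with 34 lost and 15 gained. In these 3 sets 0 called values changed sign. Of the members called, 0 of 3 between 12 and 24 h, 1 of 3 between 24 and 48 h (FANCB) and 10 of 13 between 12 and 48 h stayed called whichever array was left out. Median scaling moved most counts: 0 members were called at 12 h (4 at an unadjusted p under 0.05), 10 at 48 h, 0 for each difference between times (13, 5 and 10 at an unadjusted p under 0.05 for 12 to 24 h, 24 to 48 h and 12 to 48 h), 2 for vehicle over time and 15 for pioglitazone over time. With array weights 16 were called at 12 h, 13 between 12 and 24 h and 8 between 24 and 48 h. A fit of the compared groups alone called 7 between 12 and 24 h and 0 between 24 and 48 h (13 at an unadjusted p under 0.05). For the difference between 12 and 24 h an offset of 50 gave 5 and testing every kept probe gave 1. The cause was not tested. With single arrays left out the counts ranged from 6 to 9 at 12 h, 20 to 23 at 24 h, 21 to 24 at 48 h, 0 to 4 between 12 and 24 h, 1 to 5 between 24 and 48 h, 10 to 13 between 12 and 48 h, 8 to 9 for vehicle over time and 21 to 24 for pioglitazone over time.

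Arrays with the same replicate number did not deviate together: over 9 pairs, r ran from -0.257 to 0.091 and 0 exceeded 0.1. With the replicate number as a block the counts were 8, 21 and 22 at 12, 24 and 48 h, 3, 3 and 13 for the differences, and 9 and 22 over time in vehicle and pioglitazone. Signals near background limit FANCC, ATR, CLSPN and the treated values of FANCB. BRCA1, RAD54L, BLM, EME1 and CHEK2 also had a treated array not above background at 24 or 48 h.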
